A study of Homo sapiens with 208 samples.

Results

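The late response of starved PC9 cells to epidermal growth factor (EGF) was described from 34 arrays of a series that holds 8 time courses of 26 arrays each. PC9 is a human lung adenocarcinoma line with an activating deletion in the EGF receptor (EGFR), and it is sensitive to gefitinib, an inhibitor of the EGFR tyrosine kinase. The 34 arrays were chosen by their labels. They were the 17 hourly arrays from 8 to 24 h of PC9 cells given 100 ng/ml EGF and the 17 arrays of untreated PC9 cells at the same hours, and all cells had first been starved for 48 h. Neither group received gefitinib. Each difference is EGF minus no treatment at the same hour, on the scale of log2 signal.

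The same contrast was set beside it in 3 other sets of arrays, none of which shares an array with the late PC9 contrast. They were PC9 at the 8 time points from 0.5 to 7 h (16 arrays), PC9 at 8 to 24 h with 0.5 uM gefitinib in both groups (34 arrays), and PC9M2 at 8 to 24 h (34 arrays). PC9M2, labelled PC9GRM2, is a single gefitinib-resistant clone isolated from PC9 after long exposure to the drug. Every time point of every treatment was 1 array, and no source says that the hours came from separate cultures. The time points therefore stand in for replicates, and the p-values measure the spread between them, which may in part be technical.

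EGFR is the founding member of the ERBB family of receptor tyrosine kinases. Ligand binding drives receptor dimerisation and signals through the RAS-ERK and PI3K-AKT cascades, which first induce immediate-early transcription factors and then a second wave of genes for secreted ligands, proteases, adhesion molecules and negative feedback regulators. In epithelial cells EGF is known for inducing migration, matrix remodelling and wound-type keratins, and the EGFR deletion of PC9 gives the receptor activity without ligand.

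The libraries matched their label by most markers of an epithelial line. All 8 epithelial markers (among them EPCAM, KRT18 and CDH1) were well above background on all 34 arrays, and none passed the test. Of the 6 lung adenocarcinoma lineage markers, 2 were well above background on all 34 arrays, and NKX2-1, the lineage transcription factor, was so on 5. Of the leukocyte, fibroblast and endothelial markers, PTPRC, CD3D, LYZ, COL3A1, LUM, PDGFRB, KDR and TEK were not well above background on any of the 34. Between 26776 and 32234 spots per array were well above background. On each of the 17 slides the untreated sample lay at array position 1 and the EGF sample at position 2. Position and treatment therefore cannot be told apart within the late contrast. The early PC9 contrast had the same positions, and under gefitinib the sample with EGF lay at position 3 and that without at 4. Position and treatment cannot be told apart in these contrasts either. The same limit may hold for the PC9M2 contrast, whose array positions are not given here. The slides were scanned on 6 days that run with time. The SD over genes of the EGF differences lay between 0.33 and 0.76 per time point (median 0.52), highest at 16 h, against 0.26 at 0 h. At 8 to 24 h it reached 1.01 in PC9M2 (median 0.41) and 1.13 in PC9 under gefitinib (median 0.40), so single hours stood out more there.

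With EGF, 1184 of 13260 tested genes were higher and 1566 lower between 8 and 24 h at a Benjamini-Hochberg adjusted p under 0.05 (limma on the paired differences). These 2750 genes were 20.7% of those tested. In bulk RNA, fewer cells of a kind and less RNA per cell cannot be told apart. Most of the differences were small. The median absolute difference over all genes was 0.11 on the log2 scale, and 54 of the genes that passed changed by at least 2-fold, 29 of them higher and 25 lower. In 21 genes (0.158%) the 17 EGF values and the 17 untreated values did not overlap at all. The share of genes that passed with EGF was 8.93% for higher and 11.8% for lower, and these are the backgrounds against which the gene lists below are read.

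Among genes well above background on most arrays of both groups, the largest rise was that of MMP1, an interstitial collagenase. Its log2 signal was 5.21, 5.86 and 6.31 (lowest, median and highest of 17) without treatment and 7.26, 8.55 and 9.17 with EGF. Every EGF array lay above every untreated array, and the mean was 5.98-fold higher (log2 difference 2.58 ± 0.13 (SE, n = 17), limma adjusted p = 1.7e-10). MMP1 was also among the few genes whose difference grew within the period, by 0.101 log2 units per hour (adjusted p = 0.0155).

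The other 9 of the 10 largest rises fell into a few kinds. SPRR1B and SPRR1A, precursors of the cornified envelope of squamous cells, rose by 1.36 and 1.20 on the log2 scale. SPRR1B went from 7.09, 9.19 and 10.15 (lowest, median, highest) without treatment to 8.86, 10.43 and 11.36 with EGF. The groups overlapped in level, but SPRR1B was higher with EGF at 17 of 17 hours. KRT6A, a keratin of activated and wounded epithelium, rose by 1.16, from a median of 12.97 to 13.89, also at 17 of 17 hours. KRT6A shares most of its sequence with KRT6B, and SPRR1A with SPRR1B, so their probes may read each other's transcripts. The second SPRR1A probe differed by 0.40.

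HAS3, a hyaluronan synthase, rose by 1.20, with untreated values of 6.31, 6.82 and 7.48 and EGF values of 7.16, 8.14 and 8.92. CXCL8 (interleukin 8), a neutrophil chemokine, rose by 1.15, from a median of 7.25 to 8.75. Both were higher with EGF at every hour although the ranges of the groups overlapped. STEAP1, a membrane metalloreductase-family protein, rose by 1.22, and its untreated values (8.52, 9.21, 9.61) lay wholly below its EGF values (9.73, 10.47, 10.77). Its 3 probes gave between 1.18 and 1.22. The remaining rises were NAV3, a microtubule-binding navigator protein (1.38), SPTSSB, a subunit of serine palmitoyltransferase (1.19), and ACTG2, an enteric smooth muscle actin (1.15). SPTSSB was higher at 16 of 17 hours and the others at all 17.

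**Figure D1:**
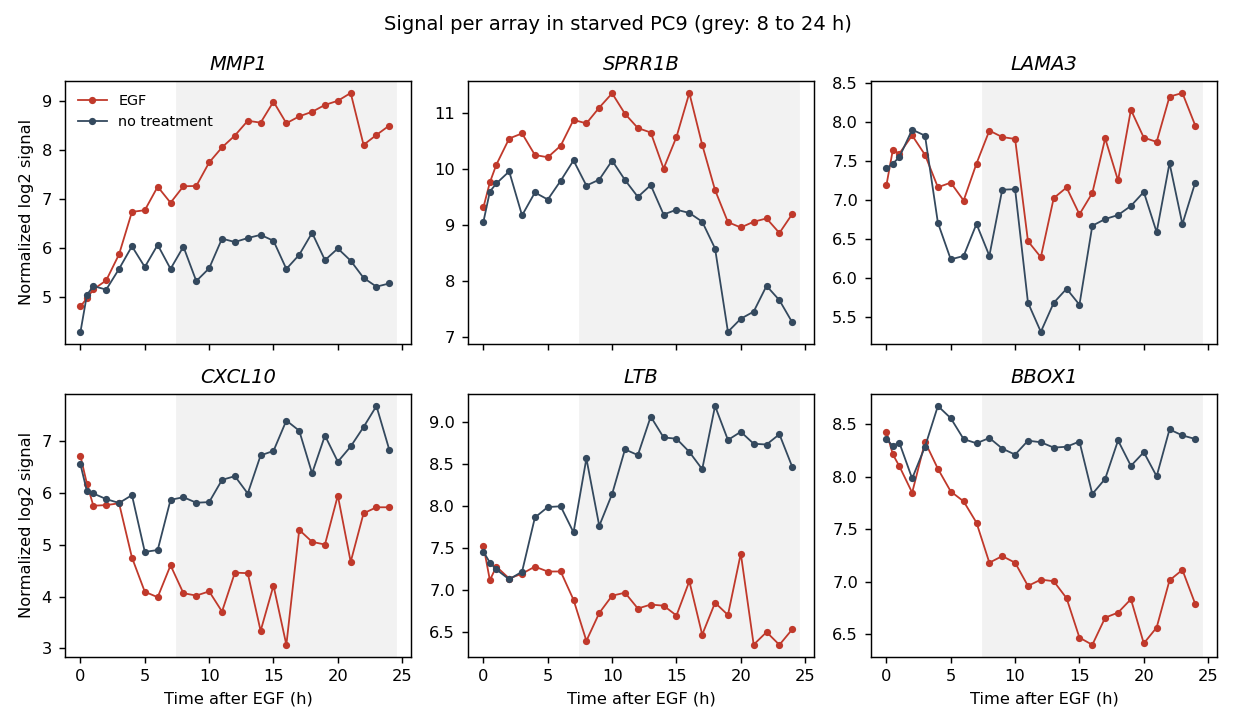
Log2 signal (vertical axis) against hours after treatment (horizontal axis) in PC9 for MMP1, SPRR1B, LAMA3, CXCL10, LTB and BBOX1, with EGF and without treatment, 1 array per point. The grey band marks 8 to 24 h. MMP1 separates from the untreated series step by step and reaches 9.17, while LTB and BBOX1 lie below it at all 17 late hours without overlap.

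CXCL10, an interferon-induced T cell chemokine, had the largest fall among genes detected in both groups. Its untreated log2 signal was 5.81, 6.73 and 7.68 (lowest, median, highest), and with EGF it was 3.06, 4.46 and 5.95. The difference was -2.04 ± 0.19 (SE, n = 17; limma adjusted p = 2.94e-07). CXCL10 was lower with EGF at 17 of 17 hours, but it was well above background on only 9 of the 17 EGF arrays, so the size of its fall rests partly on dim spots.

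LTB (lymphotoxin beta), a membrane-bound TNF-family cytokine, fell from 7.76, 8.73 and 9.19 to 6.35, 6.73 and 7.43, with no overlap (difference -1.92). RDH16, a retinol dehydrogenase, fell from a median of 8.56 to 6.92 (-1.64), and BBOX1, the last enzyme of carnitine synthesis, from 8.29 to 6.84 (-1.40). For both genes, too, all 17 EGF values lay below all 17 untreated values. SLC25A29, a mitochondrial carrier of basic amino acids, behaved the same way (-1.22), from a median of 6.59 to one of 5.35. APOL3, an apolipoprotein L family member, fell by 1.42 and was well above background on 9 EGF arrays. HYAL4, a hyaluronidase-family protein, fell by 1.20, was lower at 16 of 17 hours and was well above background on 10 EGF arrays. The falls of CALML5 (-1.12), a calmodulin-like protein of differentiating epidermis, SAA4 (-1.09), a constitutive serum amyloid A, and FAM78A (-1.09) completed the 10.

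All 20 genes kept their sign on each of the 6 scan days, each of which held 2 or 3 of the hours. The genes had been chosen on the same arrays for the same sign at 15 or more hours. That selection nearly fixed the count, so it cannot show whether the changes are stable across scan days. With background correction by normexp, all 20 still passed but 15 shrank by more than 1.5 times, MMP1 to 1.04 and CXCL10 to -0.41 on the log2 scale, so the sizes of these changes depend on how dim signal is treated.

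Sequences near the transcription start are shown for some of these genes because ERK signalling is known to act through FOS-JUN dimers, which bind the AP-1 element (TGANTCA), and interferon signalling through the response element whose core is GAAA, any 2 bases and GAAA again. Both strands were searched in the RefSeq promoters (250 bases before to 50 after the start, GRCh38.p14), of which 7.71% hold the AP-1 letters and 3.57% the interferon core. Of the 10 largest rises, 8 had a promoter in the reference and 3 of these held an AP-1 element, namely SPRR1A, SPRR1B and CXCL8. Of the 8 promoters found among the 10 largest falls, 1 held the AP-1 letters (BBOX1) and 1 the interferon core (CXCL10). The stretches below run 5′ to 3′ on the strand of the gene, with the matched letters in capitals. They lie at chr1:153031037-153031123 (SPRR1B, plus strand), chr4:73740407-73740463 (CXCL8, plus strand) and chr4:76023684-76023743 (CXCL10, minus strand), upstream of each start. A match is a run of letters and not an observed binding site.
SPRR1B: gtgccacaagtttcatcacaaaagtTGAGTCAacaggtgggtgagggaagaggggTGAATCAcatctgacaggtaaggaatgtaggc
CXCL8: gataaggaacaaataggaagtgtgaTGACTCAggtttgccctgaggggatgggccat
CXCL10: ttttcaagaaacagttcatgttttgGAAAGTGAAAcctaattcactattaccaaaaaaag

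The genes that passed in PC9 were then read in the 3 other sets. Of the 1184 genes that rose, 87.9% also had a positive EGF difference in PC9M2 (all genes 49.1%), and of the 1566 that fell, 84.7% had a negative one (all genes 50.9%). In PC9M2 itself 1001 genes passed (7.55%), and 664 genes passed in both lines, 661 with the same sign. The median difference of the genes that rose was 0.32 in PC9 and 0.15 in PC9M2, and that of the genes that fell was -0.29 and -0.13. Since the genes were selected in PC9, their PC9 medians are raised by the selection. Whether array position contributes to the signs shared by the lines was not tested.

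With gefitinib present in both groups, 4 genes passed (0.0302%), and 1232 had an unadjusted p under 0.05 (limma). Of the 1184 genes that rose without the drug, 60.6% had a positive difference under it (all genes 55.1%), and of the 1566 that fell, 40.4% had a negative one (all genes 44.9%). The medians of both sets under gefitinib were 0.03. Among the 20 largest changes, MMP1 was at 0.02 there, CXCL8 and KRT6A at -0.04, LTB at 0.11 and CXCL10 at 0.32. ACTG2 (0.72) and STEAP1 (0.49) had the highest values of the 20 under the drug, and neither passed the test of the difference between the effects without and with gefitinib (adjusted p = 0.286 and 0.0556).

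From 0.5 to 7 h, with fewer time points than in the late period, 136 genes passed (1.03%), 96 of them higher with EGF. At an unadjusted p under 0.05 (limma) there were 2572 genes early and 4204 late. The median absolute difference over all genes was 0.095 early and 0.111 late. A gene that did not pass early is therefore not shown to be unchanged. Of the late rises, 88% were already positive in the early period (all genes 47%). Of the late falls, 87.4% were already negative (all genes 53%). CXCL8 (1.15), ACTG2 (1.05), SPRR1B (0.67) and CALML5 (-0.65) passed in both periods, whereas MMP1 (0.59) and LTB (-0.39) did not pass early.

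**Figure D2:**
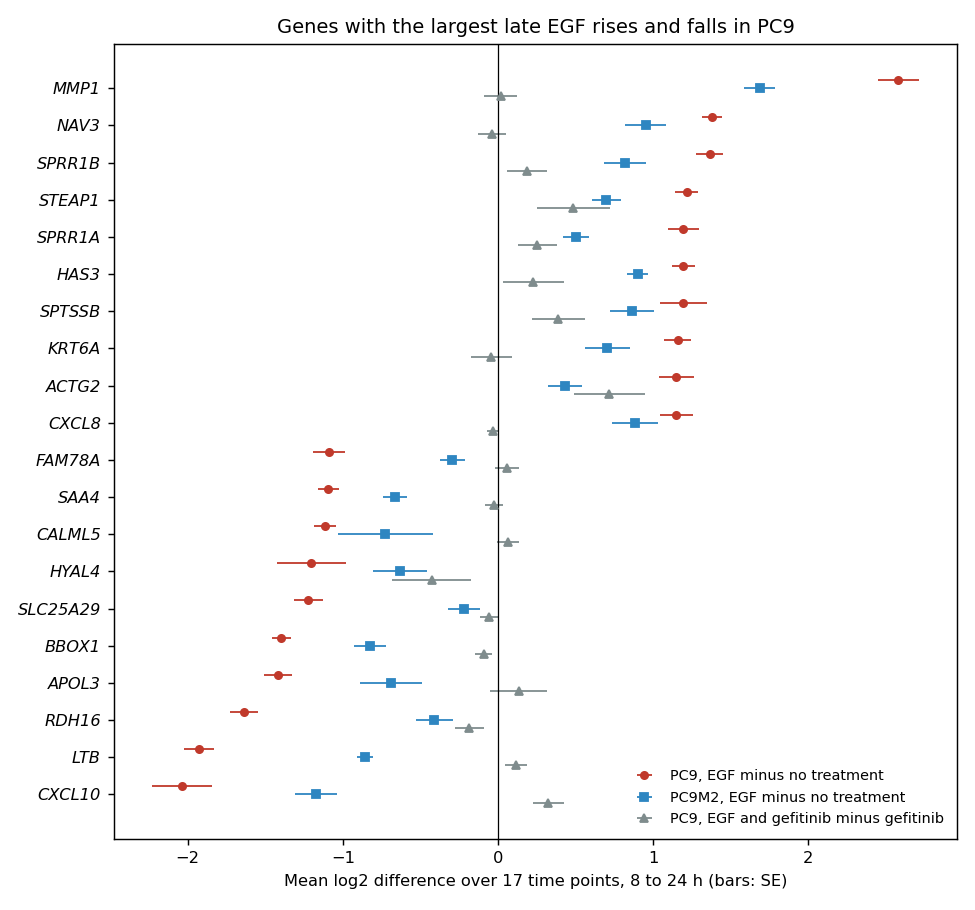
Mean EGF difference in log2 units (horizontal axis, bars are 1 SE) of the 10 largest late rises and the 10 largest late falls of PC9, in PC9, in PC9M2 and in PC9 under gefitinib, each over 17 hours. MMP1 lies at 2.58, 1.69 and 0.02, and CXCL10 at -2.04, -1.17 and 0.32.

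Tests of the differences themselves named fewer genes. Between the late and the early period, 146 genes differed (1.1%), 46 of them with a more positive late effect. The most positive values were those of MMP1 (late minus early 1.99, adjusted p = 2.95e-05), FLRT3, a fibronectin-leucine-rich transmembrane protein (1.02), and DOCK4, an exchange factor for RAC (0.91). FLRT3 was at 0.04 in the early period and rose by 1.07 late. DOCK4 rose by 0.87 late and was at 1.105 under gefitinib, where it did not pass. On the other side were LTB (-1.53) and CXCL10 (-1.49), and, on dim spots, SOX2, an epithelial stem cell transcription factor (-1.52, and -0.09 with normexp, which did not pass).

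The selected SOX2 probe was well above background on 0 of the 17 EGF arrays and on 11 of the 17 untreated ones, so that it gives no exact size. Its fitted value (-1.81) rests in large part on spots not well above background. The second SOX2 probe was well above background on 8 EGF and 11 untreated arrays and gave -0.42. CCL28, a mucosal chemokine, was well above background on 0 EGF arrays and 5 untreated ones. Its fitted value (-1.20) rests mostly on spots not well above background, so the size of its fall is unknown.

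Between the lines 162 genes differed (1.22%). LPAR6, a lysophosphatidic acid receptor, was among them. It was well above background on 14 of 17 EGF arrays and 2 of 17 untreated ones in PC9, where it went from 2.32, 2.82 and 5.02 to 3.86, 5.80 and 7.28. The LPAR6 difference was 2.28 in PC9 and 0.05 in PC9M2 (PC9 minus PC9M2 2.23, adjusted p = 2.72e-05). Since nearly all untreated LPAR6 spots were at background, these sizes are uncertain, and with normexp the late difference was 0.25 and the gap between the lines 0.24. BNC1 (basonuclin), a zinc finger protein of proliferating keratinocytes, gave 1.38 and 0.23 and was well above background on 13 EGF and 2 untreated arrays of PC9, and with normexp its gap between the lines was 0.0973 and did not pass. MUC4, a membrane mucin that can engage ERBB2, gave 0.75 in PC9 and -0.35 in PC9M2 with its most variable probe, but its other probes gave values between -0.17 and 0.13 in PC9. RDH16 (-1.64 against -0.41) and LTB (-1.92 against -0.86) had a larger fall in PC9. The selected SOX2 probe gave -1.81 against -0.22, with the limit given above, and its gap was -0.11 with normexp.

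Without against with gefitinib, 1637 genes differed (12.3%). This test uses the late arrays again, and each of its groups lay at a different array position. Its most positive members were MMP1 (2.56) and, with untreated spots near background, LPAR6 (2.11) and BNC1 (1.63), and its most negative were CXCL10 (-2.36), LTB (-2.04) and ATP6V1B1, a subunit of the vacuolar proton pump (-1.68). For 3 further genes the selected probe was near background in 1 group. That of MGAT3, an N-glycan branching enzyme, was well above it on 4 EGF and 17 untreated arrays (-1.50), and that of KCND2, a potassium channel, on 4 and 14 (-1.07). The selected probe of CDON, a co-receptor of hedgehog signalling, was so on 15 and 4 (0.63), but its other probe was so on all 34 arrays and gave 0.39.

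A drift of the effect within 8 to 24 h was detected in 5 genes (0.0377%), with 533 at an unadjusted p under 0.05 (limma). Besides MMP1, KDM4D, a histone demethylase, moved upward by 0.0567 log2 units per hour (adjusted p = 0.0155), and COL16A1, a collagen of the matrix around smooth muscle and skin, moved downward (-0.0634 per hour, adjusted p = 0.0346). COL16A1 was lower with EGF at 17 of 17 hours, by 1.03 on average. KDM4D averaged 0.24 over the period, a call lost without 20, 22 or 24 h, and over 8 to 15 h alone it was -0.03. The other 2 genes, BRS3 and TBC1D10C, did not pass on their mean difference and are named here after their values were seen.

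Gene lists of the pathway and of the tissue were read against these backgrounds. Each list is given by how many of its tested members passed in each direction and by the median difference of all its tested members, beside a median of -0.01 over all 13260 genes.

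Among the ligands of the ERBB family, 4 of 7 tested rose and none fell (median 0.23). AREG (amphiregulin), a low-affinity ligand of EGFR, went from 8.74, 9.57 and 10.21 to 9.62, 10.21 and 10.89, a rise of 0.69 at 17 of 17 hours (limma adjusted p = 4.69e-08). HBEGF, a heparin-binding ligand, rose by 0.63, and by 0.61 in PC9M2. TGFA rose by 0.23. EREG (epiregulin) rose by 0.87 with the selected probe, which was well above background on 14 EGF and 7 untreated arrays and lost its call when 13 h or 24 h was left out. Its other probe, well above background on all 34 arrays, rose by 0.30.

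Of 18 receptors and regulators, 5 rose and 3 fell (median 0.05). CBL, the ubiquitin ligase that sends active EGFR to degradation, rose by 0.79 ± 0.10 (SE) with the selected probe, from a median of 7.498 to 8.102, and by 0.32 with the brighter one. ERRFI1 (MIG6), a feedback inhibitor of the receptor kinase, rose by 0.32. EGFR itself rose by 0.30, from 11.43, 11.88 and 12.32 to 11.78, 12.18 and 12.59, and was nearly the same in PC9M2 (0.26) and at -0.01 under gefitinib. ERBB2, its preferred partner, fell by 0.34, and its dimmer probe gave -0.66.

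Of 21 genes of the ERK feedback loop, 11 rose and 0 fell (median 0.20), against 8.93% and 11.8% of all genes, and the other 10 did not pass. PHLDA1, a pleckstrin-homology protein induced by growth factors, rose by 0.52 at 17 of 17 hours, DUSP2 and DUSP7, phosphatases of ERK and related kinases, by 0.46 and 0.44, and RASA2, a GTPase activator of RAS, by 0.46. The list's median was 0.19 under gefitinib, where none of its members passed, and 2 of the 21 differed between the effects without and with the drug.

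The immediate-early genes split, with 11 of 27 higher and 4 lower (median 0.10). The EGR transcription factors led the rises, EGR3 by 0.79, EGR4 by 0.76 and EGR1 by 0.69, each at 17 of 17 hours, followed by KLF2 (0.59, with a dimmer probe at -0.13). All 4 were higher in the first 7 h, where EGR4 was at 1.83, KLF2 at 1.89 and EGR1 and EGR3 at 1.22. The test between periods passed for 4 genes of the list, EGR2 (late minus early -1.01), EGR4 (-1.07), KLF2 (-1.30) and NR4A1 (-0.88). EGR1 and EGR4 also differed from PC9M2, where they were at -0.23 and -0.08.

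Of the proteases, plasminogen activators and their inhibitors, 8 of 17 passed higher and 2 lower. The median of the list was 0.08, so that the count and the size rest on a part of it. After MMP1 came PLAT and PLAU, the tissue and urokinase plasminogen activators. PLAT was 12.52, 13.70 and 14.35 without treatment and 13.08, 14.38 and 14.95 with EGF (0.66, adjusted p = 1.79e-09), and PLAU rose by 0.37, both at 17 of 17 hours. MMP28 fell by 0.61 with its selected probe, which was well above background on 3 EGF and 6 untreated arrays, and its brighter probe gave 0.06. Of the members that passed higher, 6 had a reference promoter and 3 of these held an AP-1 element. They include MMP7 (matrilysin), at chr11:102530783-102530839 on the minus strand, and PLAUR, the urokinase receptor, at chr19:43670324-43670380 on the minus strand, whose late differences were 0.29 and 0.30. These 2 genes are named for their motif.
MMP7: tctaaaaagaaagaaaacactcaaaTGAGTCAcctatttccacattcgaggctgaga
PLAUR: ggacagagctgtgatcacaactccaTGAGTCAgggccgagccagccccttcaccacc

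Integrins, laminins and hemidesmosome components, which anchor epithelial cells to the basement membrane, had 9 of 20 members that rose and 0 that fell (median 0.22). The other 11 did not pass, 6 of the 20 differences were negative, and the list's median was positive at 17 of 17 hours. LAMA3, a chain of the hemidesmosomal laminin, went from 5.31, 6.69 and 7.47 to 6.27, 7.78 and 8.37 (difference 0.98 ± 0.09, SE, adjusted p = 1.6e-07). ITGA6, the alpha chain of the hemidesmosomal integrin, rose by 0.69. In PC9M2 9 members also rose (median 0.20), while the median under gefitinib was 0.02. COL17A1, a transmembrane hemidesmosomal collagen, rose by 0.87, but its arrays already differed by 1.58 at 0 h. The median of the list was 0.09 with normexp.

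Squamous and cornified envelope genes had 10 of 25 higher and 1 lower (median 0.26, and 0.14 with normexp), positive at 17 of 17 hours. SPRR3 rose from a median of 9.49 to 10.64 (0.95) and SPRR2D from 7.64 to 8.28 (0.75), both envelope precursors. The list's median was 0.07 in the first 7 h. Of the keratins and junction genes, 6 of 37 rose and 4 fell (median 0.04). Apart from KRT6A and KRT6B (0.87), KRT4, a keratin of stratified mucosa, fell by 0.42. OVOL1, a repressor in epidermal differentiation, rose by 0.38 with the selected probe, a call lost in 13 of the 17 runs that left out 1 hour, and was at -0.03 with the brighter probe.

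**Figure D3:**
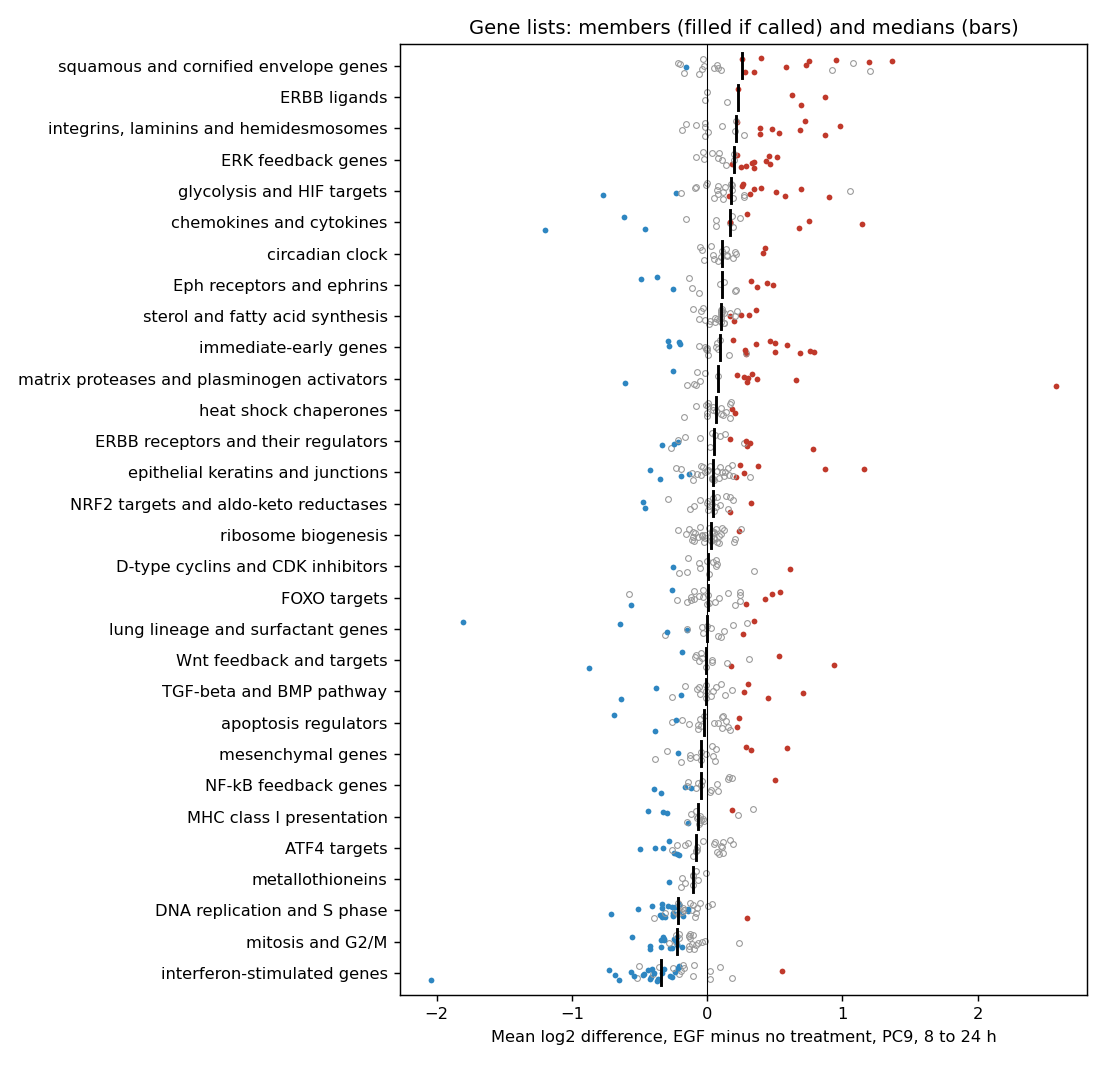
Mean late EGF difference in PC9 in log2 units (horizontal axis) of every tested member of the gene lists, 1 row per list. Filled points passed the test (red higher, blue lower), open points did not, and black bars are list medians, which run from -0.34 for interferon-stimulated genes to 0.26 for squamous genes.

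The interferon-stimulated genes, which cells switch on to resist viruses, mostly fell. Of 38 tested, 22 fell and 1 rose, against 11.8% and 8.93% of all genes, and the median was -0.34. This median was negative at 17 of 17 hours, between -0.43 at 14 h and -0.07 at 16 h. CXCL10 had the largest fall. CXCL11, a chemokine for the same receptor, fell from a median of 5.82 to 4.87 (-0.65, 9 EGF and 14 untreated arrays well above background) with the selected probe and by 1.19 with the brighter one, and IFIT2, an RNA-binding antiviral protein, fell from 5.32 to 4.60 (-0.68). MX2, an antiviral GTPase, gave -0.73 with a selected probe well above background on 1 EGF and 2 untreated arrays, and -0.70 with a probe that was so on 16 and 17.

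ISG20, an antiviral exonuclease, was the 1 member that rose (0.55, adjusted p = 3.7e-06), and it is named after its value was seen. In PC9M2 9 members fell and 1 rose (median -0.19), and under gefitinib none passed (median 0.01). The test without against with gefitinib passed for 15 members, and that between the lines for 1. As for the 8 leukocyte markers, PTPRC, CD3D and MS4A1 were not tested, and none of the others passed. The summed log2 level of the 8 lay between 9.07 and 10.14 without treatment and between 9.21 and 10.11 with EGF. With normexp the median was -0.12 and 16 members fell.

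Of the members that fell, 16 had a reference promoter and 11 of them (68.8%) held the interferon core. Of those that did not pass, 13 had one and 8 (61.5%) held it, so the shares lay close together. IFIT1 (-0.47) and BST2 (-0.37), the tetherin that holds virions at the cell surface, are shown as members that fell, and ISG20 as the one that rose, whose window holds both motifs. They are at chr10:89392482-89392554 (IFIT1, plus strand), chr19:17405720-17405785 (BST2, minus strand) and chr15:88638922-88639015 (ISG20, plus strand). In IFIT1 the capitals are the core read on the opposite strand, and in BST2 a pair of overlapping cores.
IFIT1: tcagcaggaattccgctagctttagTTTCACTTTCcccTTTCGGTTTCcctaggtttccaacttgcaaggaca
BST2: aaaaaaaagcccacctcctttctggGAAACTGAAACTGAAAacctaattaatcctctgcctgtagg
ISG20: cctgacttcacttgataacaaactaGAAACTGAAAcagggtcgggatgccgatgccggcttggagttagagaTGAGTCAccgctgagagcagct

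Antigen presentation by MHC class I, which shares many regulators with the interferon genes, moved less. Of 18 members 4 fell and 1 rose (median -0.06). The falls included 3 subunits of the immunoproteasome, PSMB9 (-0.43, at 17 of 17 hours), PSMB8 (-0.33) and PSMB10 (-0.30). TAP2, a peptide transporter, rose by 0.18 but lost its call in 13 of the 17 runs that left out 1 hour. Of 18 NF-kB feedback genes, 4 fell and 1 rose (median -0.04). TNFAIP3 (A20), an inhibitor of the pathway, rose by 0.50, while the adhesion molecule ICAM1 (-0.39), the nuclear cofactor BCL3 (-0.34) and the inhibitor NFKBIA (-0.16) fell. The call of NFKBIA was lost without 9, 11 or 12 h.

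Among the chemokines and cytokines, 5 of 15 rose and 3 fell. IL1B, a proinflammatory cytokine, rose from 4.79, 5.72 and 6.68 to 5.38, 6.46 and 7.57 (0.76), and its effect in PC9M2 (0.05) differed from this. CSF2 (GM-CSF), a myeloid growth factor, rose by 0.68 and was well above background on 14 EGF and 7 untreated arrays. CXCL8 and CCL28 were given above.

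Many genes of DNA replication and of mitosis fell with EGF. Of 41 replication and S phase genes, 20 fell and 1 rose (median -0.21), and of 35 mitosis and G2/M genes, 16 fell and 0 rose (median -0.23). The other 20 and 19 did not pass. Without pairing by hour 6 replication genes and 1 mitosis gene fell, and with time points 3 h apart 4 and 1 did, at medians of -0.23 and -0.18. Both medians were negative at 17 of 17 hours in the paired data. E2F2, a transcription factor that drives S phase entry, went from 11.45, 12.37 and 12.78 to 10.72, 11.81 and 12.19 (-0.71), and its dimmer probe gave -0.24. MCM7, a subunit of the replicative helicase, fell by 0.51 and the primase PRIM1 by 0.41. The exception was CCNE1 (cyclin E1), which promotes S phase entry and rose by 0.30. In mitosis the largest falls were those of NEK2, a centrosome kinase (-0.56), CCNB2, a mitotic cyclin (-0.42), BIRC5 (survivin, -0.42) and the kinesin KIF20A (-0.34).

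Both lists had the opposite median under gefitinib, 0.15 for replication and 0.26 for mitosis. The latter was positive at 16 of 17 hours, although CDC25C was the only gene of either list that passed there. The difference between the effects without and with gefitinib passed for 24 members of each list, and it was negative for all of these except CCNE1. In PC9M2 the medians were -0.03 and -0.08, with 1 and 2 members lower. The mitosis median of PC9M2 changed sign within the day, from -0.33 at 12 h to 0.39 at 18 h and back below 0 from 19 h. Its lowest value was -0.45 at 11 h, where the MHC class I median of PC9M2 (1.34) also lay far from its other hours. Between the lines 3 replication genes and no mitosis gene differed.

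**Figure D4:**
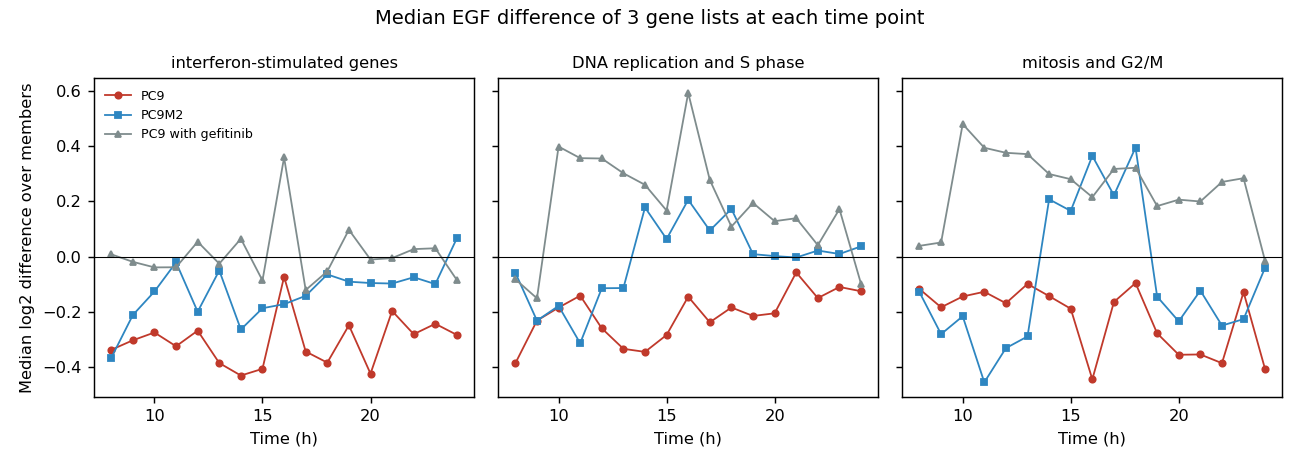
Median EGF difference in log2 units (vertical axis) of interferon-stimulated, replication and mitosis genes at each hour from 8 to 24 h (horizontal axis), in PC9, PC9M2 and PC9 with gefitinib. The PC9 line stays below 0 at all 17 hours in each panel, while mitosis genes under gefitinib lie above 0 at 16.

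Of the D-type cyclins, their kinases and the CDK inhibitors, 1 of 14 rose and 1 fell (median 0.01). CDKN1A (p21), which halts the cycle and is also induced by ERK, rose from 7.03, 8.07 and 9.12 to 7.68, 8.89 and 9.21 (0.62), and it rose by 0.53 in PC9M2. CDKN1C (p57) fell by 0.25. Of 36 ribosome biogenesis genes, which growth signals often raise, 1 rose (RRP1B, 0.23, and 0.0535 with its brighter probe, which did not pass) and 0 fell (median 0.03), against 8.93% and 11.8% of all genes.

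In metabolism, 10 of 31 glycolysis and hypoxia-factor (HIF) targets rose and 2 fell (median 0.18). ANGPTL4, a secreted inhibitor of lipoprotein lipase, rose by 0.90 and was already at 1.01 in the first 7 h. BNIP3, a mitophagy receptor, went from a median of 11.64 to 12.29 (0.57) and was at -0.01 early, a difference that passed. NDRG1, a stress-response protein, rose by 0.69, and by 0.32 with its brighter probe. CA12, a carbonic anhydrase, fell by 0.77 and was well above background on 5 EGF and 7 untreated arrays. Sterol and fatty acid synthesis had 5 of 31 higher and 0 lower (median 0.10), among them the desaturase SCD (0.36) and the sterol synthesis enzyme LSS (0.31). Neither passed with its brightest probe (0.078 and 0.074), and with the brightest probe of every gene 2 of the list rose and 1 fell.

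ATF4 targets, the genes of the amino acid stress response, included 7 of 27 that fell and none that rose (median -0.08). The transcriptional cofactor NUPR1 went from 11.71, 12.26 and 12.52 to 11.08, 11.69 and 12.18 (-0.50), and the serine synthesis enzymes PSAT1 and PHGDH fell by 0.39 and 0.32, each at 17 of 17 hours. WARS1, a tRNA synthetase that interferon also induces, fell by 0.28. Of 26 FOXO targets, 4 rose and 2 fell (median 0.01), with BCL6, a transcriptional repressor, at -0.56 and the pseudokinase TRIB1 at 0.54 (0.24 with its brighter probe).

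Among apoptosis regulators, 3 of 21 fell and 2 rose (median -0.02), near the shares of all genes (11.8% and 8.93%). TNFSF10 (TRAIL), a death ligand that interferon induces, fell by 0.69 at 17 of 17 hours, with 7 EGF and 12 untreated arrays well above background. BAD, a BH3-only protein, fell by 0.39 and the death receptor FAS by 0.23, and the survival protein MCL1 rose by 0.23, while its brightest probe gave 0.0514 and did not pass.

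Of the signalling lists, 4 of 21 TGF-beta and BMP genes rose and 3 fell. INHBA, the activin A subunit, rose from 11.19, 12.26 and 12.59 to 12.11, 12.92 and 13.23 (0.71), and BAMBI, a decoy receptor, fell by 0.64. Of 15 Wnt feedback genes and targets, 3 rose and 2 fell. The secreted inhibitor DKK1 rose by 0.94 without overlap, from 7.26, 7.58 and 8.00 to 8.08, 8.47 and 9.56. AXIN2, a target and feedback inhibitor of beta-catenin, fell from 5.81, 6.32 and 7.12 to 4.66, 5.40 and 6.00 (-0.88), in PC9M2 by 0.74. SFRP1, another secreted inhibitor, rose by 0.53. AXIN2 was at -0.08 under gefitinib and DKK1 at 0.39.

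Eph receptors and ephrins, which steer cell contact, had 4 of 14 higher and 3 lower, with EFNB2 at 0.49, EPHA2 at 0.44 and EPHB3 at -0.49. Of 17 lung lineage genes, 2 rose and 4 fell. SFTPD, surfactant protein D, fell by 0.64 and SOX9, a progenitor factor, rose by 0.34. Of 17 mesenchymal genes, 3 rose and 1 fell, and TNC (tenascin C) rose by 0.59 and was at 0.69 under gefitinib without passing there.

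The remaining lists held few calls, in shares near or below those of all genes (8.93% higher and 11.8% lower). Circadian genes had 2 of 17 higher (RORA 0.43, NR1D1 0.41), NRF2 targets 2 of 22 higher and 2 lower (NQO1 -0.47, HMOX1 0.33), heat shock chaperones 2 of 19 higher at an adjusted p of 0.0498 and 0.0496 (DNAJB6 and HSPA1A, calls lost in 11 and 13 of the runs without 1 hour, with other probes down to 0.0629 and 0.0329), and metallothioneins 1 of 10 lower (MT1F -0.28). The metallothioneins, zinc-binding proteins of near-identical sequence, had a median of -0.11 in PC9 and of 0.33 in PC9M2, where 6 rose, and 5 of the 10 differed between the lines.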

How the data were processed

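Total RNA was labelled with Cy3 and hybridised to 44K Agilent whole human genome arrays, 1 array per line, treatment and hour. The deposited scanner files hold signal intensities, background-subtracted and detrended by the authors with Agilent Feature Extraction 10.5.1.1 (per the file headers). A deposited table of quantile-normalized intensities, made by the authors from the same arrays, served as an alternative. The number of arrays limits the precision.

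Outlier spots were removed, signals of all arrays of the series were quantile normalized, floored at 1 and log2 transformed, and spots of a probe were averaged. The probe with the largest variance stood for a gene, as in the study's methods. Of 41000 probes, 24789 matched a symbol of the reference, giving 16958 genes, and 13260 genes were tested, those well above background on at least 13 of 26 arrays of any time course. Differences at matched time points were tested with limma 3.58.1 in R 4.3.3 (two-sided, Benjamini-Hochberg over all tested genes), which fits the paired design of the methods. Missing values (0.16% on the 34 arrays) dropped that pair for that gene, so a few genes have 16 pairs. The correlation of deviations within a pair lay between 0.22 and 0.85. Of the 17 EGF arrays, 10 correlated best with the untreated array of their own hour. Both arrays of a pair also shared a slide and a scan day, so this correlation cannot be assigned to the hour alone. The scripts were tested on simulated data.

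Genes were named as the 10 largest rises and falls with the same sign at 15 or more of 17 hours and well above background on at least 9 arrays of both groups, up to 4 called members with the largest differences per list, the 3 largest differences on either side in each test of a difference or trend, and genes well above background on at least 13 arrays of one group and at most 4 of the other. The members and lists were chosen with earlier results of these data known. Promoters came from RefSeq (GRCh38.p14). Alternatives covered scaling, background, values, probe, filter, floor, test, pairing, spacing of hours, scan day, fold, period and single hours, and 2 were added after seeing the data. A few members of the lists are counted in them but not reported here by name.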

Additional observations from a re-analysis of the deposited data

Results flagged for a closer look

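The following effects differed between periods, lines or drug by a limma test of the difference itself (Benjamini-Hochberg over all tested genes). Between the late and the early period of PC9, 146 genes differed, with MMP1 (1.99), FLRT3 (1.02) and DOCK4 (0.91) at the positive end and LTB (-1.53), SOX2 (-1.52) and CXCL10 (-1.49) at the negative end, in log2 units. The selected SOX2 probe was well above background on 0 of 17 late EGF arrays of PC9, so its values are not exact sizes. Between PC9 and PC9M2, 162 genes differed, with LPAR6 (2.23), BNC1 (1.16), MUC4 (1.1), LTB (-1.07), RDH16 (-1.23) and SOX2 (-1.58) at the ends. LPAR6 and BNC1 were well above background on 2 of the 17 late untreated arrays of PC9, so theirs are not exact either. Between the late EGF effects of PC9 without and with gefitinib, 1637 genes differed, and the ends were MMP1 (2.56), LPAR6 (2.11), BNC1 (1.63), ATP6V1B1 (-1.68), LTB (-2.04) and CXCL10 (-2.36).

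Among the early pairs of PC9, 1 hour stood far from the others in 2 of the 20 genes with the largest late changes. SPRR1B differed by 1.47 at 3 h and CXCL8 by 0.46 at 4 h. Such gaps arise by chance in about 1 in 20 groups.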

How the results depend on the processing

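The late effect in PC9 (2750 genes) had 2705 calls with scaling to the 75th percentile, 2476 with normexp, 2759 with the deposited values and 2799 with the floor of 16, of which 2458, 2125, 2724 and 2686 were among the 2750. It had between 2419 (without 22 h) and 3051 (without 16 h) calls when 1 hour was left out. Its 20 largest changes kept their sign wherever they were tested, and with the filter on all 34 arrays 14 of them were. These genes had been chosen on the same arrays for their size and for the same sign at 15 or more hours. That selection nearly fixed the result, so it cannot show that the changes are stable. In the order late PC9, late PC9M2, under gefitinib, early, late minus early, PC9 minus PC9M2, without minus with gefitinib and trend, the counts with no replicate block by time point were 555, 143, 0, 5, 4, 12, 172 and 0. The unpaired fit thus kept 555 of the 2750 calls, and of the 20 largest changes CXCL8 lost its call (SPTSSB did with hours 3 h apart and HYAL4 over 16 to 24 h). With time points 3 h apart they were 354, 0, 0, 0, 0, 0, 1 and 0, on fewer samples. The methods' t-test at an unadjusted p under 0.05 gave 4201, 2760, 1222, 2568, 1284, 1747, 3435 and 559. At least 2-fold changes numbered 54, 15, 0, 11, 12, 10 and 75, with no such count for the trend. By limma at an unadjusted p under 0.05, the zeros correspond to 253 and 117 genes without the block (under gefitinib and trend), to 906, 699, 454, 491, 992 and 310 genes with hours 3 h apart, and to 1232 genes for the fold.

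The period from 8 to 15 h alone gave 1473 calls and 16 to 24 h alone 794. Under gefitinib the 4 calls became 1 with scaling to the 75th percentile, 13 with normexp, 1 with no filter, 12 with the filter on all 34 arrays, 9 with the methods' t-test after Benjamini-Hochberg, 1 with standard errors inflated by autocorrelation, 2 with scan day as a block and 21 without 16 and 18 h, a setting added after seeing the data. The 136 early calls became 211, 254, 38, 297, 50 and 7 under the first 6 of these, and 237 with the brightest probe, 255 with the filter on late arrays and 206 with the floor of 16. The share of early calls that were higher was 70.6%, and 53.6% and 53.5% with the first 2. Autocorrelation left 568 calls in PC9M2, 77 for late minus early and 103 for PC9 minus PC9M2. Scan day as a block gave 389 for late minus early, 251 for PC9 minus PC9M2 and 20 for the trend, and normexp gave 255 for PC9 minus PC9M2 and 2 for the trend. The 5 trend calls became 8 with the floor of 16, 13 with the methods' t-test after adjustment and 8 without 16 and 18 h. The cause of these shifts was not tested.

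Of the named genes, 6 values reversed. With the brightest probe MMP28 was at 0.0605, OVOL1 at -0.0285, MUC4 at -0.17 in PC9 and at -0.21 for PC9 minus PC9M2. OVOL1 was at -0.0256 with the mean of all probes, and KDM4D at -0.0316 over 8 to 15 h alone. Of the other values, 4763 kept call and direction and 486 lost the call. The list medians of interferon-stimulated genes ranged from -0.38 to -0.12 over the alternatives, those of replication genes from -0.30 to -0.14 and those of mitosis genes from -0.25 to -0.14. The number of genes that fell ranged from 3 to 28 for interferon, 4 to 30 for replication and 1 to 23 for mitosis genes. The number that rose ranged from 1 to 14 for ERK feedback genes and 5 to 13 for squamous genes. It ranged from 2 to 10 for both the integrin list and the protease list, whose median ran from -0.02 to 0.27 for proteases. Treatment is confounded with array position, hours stand in for replicates, and signal near background limits the size of the changes of dim genes.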

Other observations

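Some large mean differences that did not pass rested on a single pair of spots. KLK6, a kallikrein-family protease of skin, had a mean difference of 1.20 (limma adjusted p = 0.0679), with 9.00 at 23 h and between 0.25 and 1.25 at the other 16 hours. Without the 23 h pair KLK6 was at 0.72 (adjusted p = 9.14e-07) and positive at 16 of 16 hours. HK2, the inducible hexokinase, had 8.39 at 14 h and between 0.25 and 0.90 elsewhere, and its mean went from 1.06 (adjusted p = 0.0878) to 0.60 (adjusted p = 2.53e-07) without that pair. SERPINB4, a squamous cell serpin, had 8.48 at 23 h, and its mean went from 1.08 (adjusted p = 0.0925) to 0.62 (adjusted p = 0.00086). KLK8, a neighbouring kallikrein, had 13.14 at 23 h, but without it the mean was 0.16 (adjusted p = 0.182) and 10 of 16 hours were positive.

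Over all tested genes, 201 pairs in 193 genes lay more than 4 log2 units from the median difference of their gene, 49 of them at 23 h. This limit and these 4 genes were chosen after their values were seen. What made these spots stand apart was not tested.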
